A study of Mus musculus with 6 samples.

Results

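A set of 10 genes of iron handling was chosen by symbol from a table of RNA sequencing values, 10 of the 18058 genes it holds, and was compared between the brainstems of wild type and Rag1-/- mice. They are the transferrin receptor Tfrc and the iron importers Slc11a2 and Slc39a14, the plasma carrier Trf, the ferritin subunits Fth1 and Ftl1, the exporter Slc40a1 and the ferroxidase Cp, and the RNA-binding iron sensors Aco1 and Ireb2. The list was put together with results of this comparison known, so the differences of the 10 genes are given as a description. Standard errors are those of the fitted model (limma-trend). No p-value of any of the 10 is printed, and p-values enter only as counts under a threshold. All 10 passed the filter on low values.

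Total RNA came from whole, snap-frozen brainstems of untreated mice at 1 month of age, 3 wild type (WT, C57BL/6J) and 3 Rag1-/-, each library from a separate mouse. The Rag1 protein is needed to cut and join antigen receptor genes, and mice lacking it have no mature T and B cells. The Rag1-/- genotype is carried by every cell of the animal, so the comparison does not separate brain cells from immune cells. Values are in CPM, gene counts scaled to the size of the library. From the steps among low values, depth was estimated at 34800000 to 46400000 reads in the WT libraries and 31600000 to 35100000 in those labelled Rag1-/-, and the lowest value of any of the 10 genes (Slc40a1 in WT replicate 3) stood for about 214 reads.

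The targeted gene and the tissue labels were examined first. Rag1 transcripts were at 0.115 to 0.388 CPM in WT and at 2.60 to 4.02 CPM in the libraries labelled Rag1-/-, that is, higher where the gene was targeted, so every direction below rests on the labels. High Xist was found in WT libraries only, with 172 CPM in replicate 1 and 177 CPM in replicate 2, against 0.462 to 2.93 CPM in the other 4 libraries. The Y-linked Ddx3y was at 0.215 to 0.283 CPM in those 2 WT libraries and at 45.2 to 56.2 CPM in the other 4. The labels give no sex, but by these transcripts the groups were not matched for it, so each difference between the groups mixes genotype with sex, and WT replicate 3 is the only WT library like the 3 labelled Rag1-/-. All 7 brainstem markers listed passed the filter, with a summed level of 38.2 to 94.8 CPM in WT and 39.2 to 124 CPM in the libraries labelled Rag1-/-. The hindbrain gene Hoxb3 was lowest in replicate 2 labelled Rag1-/-, at 0.412 CPM, against 2.5 to 7.86 CPM in the other 5 libraries. Forebrain markers summed to 2.95 to 4.02 CPM over all 6 libraries.

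Cells take up iron mainly as transferrin, the protein of Trf, through the receptor encoded by Tfrc. Iron leaves the endosome through the Slc11a2 transporter, is stored in ferritin shells built from the Fth1 and Ftl1 chains, and leaves the cell through ferroportin, the product of Slc40a1, with a ferroxidase such as the product of Cp. Uptake and storage are tied together after transcription: the proteins of Aco1 and Ireb2 bind a hairpin in messenger RNAs, the iron-responsive element, when iron is scarce. Binding in a 5′ untranslated region holds back translation, and binding in the 3′ untranslated region of Tfrc protects its messenger RNA from decay. In the brain, oligodendrocytes are known for high transferrin and ferritin, and endothelial cells of the blood-brain barrier for transferrin receptor.

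The hairpins are shown because they are the element this circuit reads, and their place before or after the coding sequence differs between Tfrc and the genes of storage and export. They were read from GENCODE M21 coding transcripts (mm10) as a C, 5 bases of any kind, CAGTG and 1 further base, on the transcript strand only, with the 5 bases between the C and the loop required to pair, G with U included, with the 5 bases after the loop. Each line holds 27 bases from 5′ to 3′, with the bulged C and the 6-base loop in capitals.
Tfrc 3′ UTR, chr16:32631220-32631246, plus strand: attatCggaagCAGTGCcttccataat
Tfrc 3′ UTR, chr16:32631599-32631625, plus strand: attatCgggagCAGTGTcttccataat
Tfrc 3′ UTR, chr16:32631664-32631690, plus strand: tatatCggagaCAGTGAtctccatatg
Tfrc 3′ UTR, chr16:32631711-32631737, plus strand: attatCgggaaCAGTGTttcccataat
Fth1 5′ UTR, chr19:9982733-9982759, plus strand: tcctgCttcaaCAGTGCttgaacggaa
Ftl1 5′ UTR, chr7:45459780-45459806, minus strand: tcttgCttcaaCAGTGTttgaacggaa
Slc40a1 5′ UTR, chr1:45925466-45925492, minus strand: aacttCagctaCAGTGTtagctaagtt

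The 4 Tfrc matches begin 887, 1266, 1331 and 1378 bases past the last coding base of the transcript, the stop codon not counted as coding. The match of Fth1 lies 111 bases before the coding start, that of Ftl1 149 and that of Slc40a1 203. Over 21877 coding genes, 0.142% held such a match in a 5′ UTR and 0.585% in a 3′ UTR. No match under this rule was found in the transcripts of the other 6 genes, which says only that these letters with 5 pairs are not there. Slc11a2, whose messenger RNA is known to carry an iron-responsive element in a 3′ UTR, is among those 6, so the rule does not find every element. Matches are a description of the letters and not a measurement of binding.

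Levels between genes were compared per length, as CPM per kb of the longest coding transcript. Fth1 stood highest, with 1220 to 1450 CPM per kb over the 6 libraries, ahead of Trf with 389 to 490 and Ftl1 with 183 to 194. Tfrc followed with 15.5 to 27.6 CPM per kb. The iron sensors and Slc11a2 lay close together, Aco1 at 9.24 to 10.5, Slc11a2 at 8.58 to 9.29 and Ireb2 at 8.21 to 9.13 CPM per kb, and these neighbours overlapped in range. Slc39a14 was at 5.72 to 6.31 CPM per kb, and the genes of export were the lowest, Cp at 2.94 to 3.99 and Slc40a1 at 1.82 to 3.12, which overlapped with each other. Near-identical processed copies of the ferritin genes exist in the mouse genome, so the levels of Fth1 and Ftl1 depend on how shared reads were counted.

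**Figure D1:**
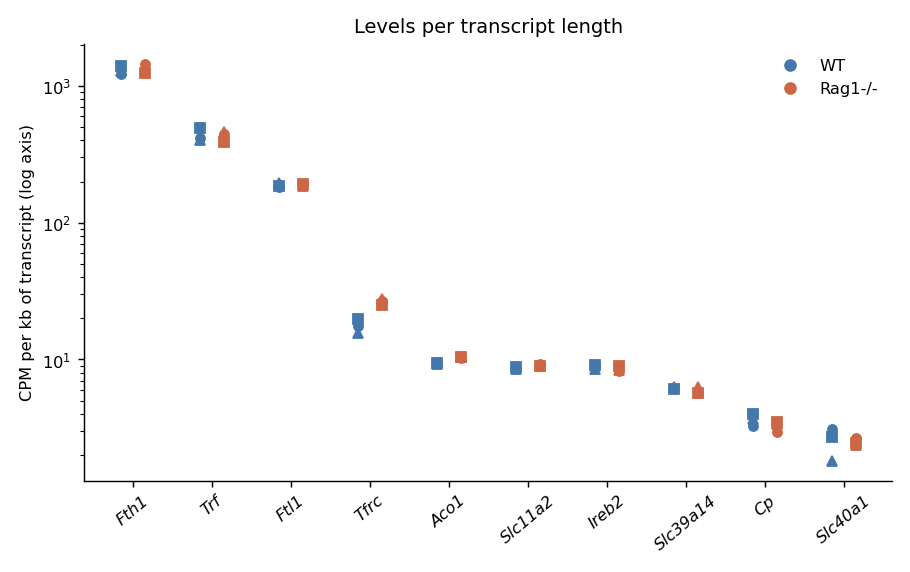
Levels of the 10 iron genes as CPM per kb of the longest coding transcript (log axis), with 1 point per library (circle, square and triangle for replicates 1, 2 and 3; WT in blue, Rag1-/- in orange). Fth1, Trf and Ftl1 stand at 183 CPM per kb or more in every library and the other 7 genes at 27.6 or less.

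Among the genes of uptake, Tfrc was higher in the libraries labelled Rag1-/-. Tfrc (chr16:32608896-32632794, plus strand) was at 86.5, 96.1 and 75.7 CPM in WT, in the order of the replicate numbers as throughout, and at 131, 123 and 135 CPM in those labelled Rag1-/-. The groups did not overlap, and the lowest library labelled Rag1-/- lay above the highest WT library. The means were 86.1 ± 10.2 CPM (SD, n = 3) and 129 ± 6.07 CPM (SD, n = 3), 50.3% higher, and the difference in log2(CPM + 0.1) was 0.59 (standard error 0.08). WT replicate 3, the only WT library with low Xist, was the lowest in Tfrc. With a term for high Xist, which compares it alone with the 3 libraries labelled Rag1-/-, the log2 difference was 0.77. Among the 9669 tested genes averaging 10 CPM or more, 5 had a higher difference in log2(CPM + 0.1) at least as large as that of Tfrc, Tfrc included, and 14 had a lower difference of at least that size. Because Tfrc was listed with this comparison known, its place among these genes is a description and no test.

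Slc11a2 (chr15:100387900-100423055, minus strand), which moves ferrous iron out of the endosome, was at 38.2, 38.9 and 37.9 CPM in WT against 41.0, 39.4 and 39.5 CPM in those labelled Rag1-/-. These groups did not overlap either, but the gap between them was small beside the level, and the log2 difference was 0.06 (standard error 0.04). Slc39a14 (chr14:70303467-70351424, minus strand), a transporter that takes up iron not bound to transferrin as well as zinc and manganese, was at 30.6, 30.0 and 31.1 CPM in WT against 28.2, 28.2 and 31.0 CPM in those labelled Rag1-/-. Its groups overlapped through replicate 3 labelled Rag1-/-, and gave a log2 difference of -0.07 (standard error 0.05). Without that library it was -0.12 and the groups did not overlap.

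Transferrin transcripts overlapped between the groups. Trf (chr9:103208876-103230286, minus strand) was at 1070, 1260 and 1040 CPM in WT against 1140, 1000 and 1180 CPM in those labelled Rag1-/-, with both the highest value and the second lowest in WT. The means were 1130 ± 121 CPM and 1110 ± 93.4 CPM (SD, n = 3 each), and the log2 difference was -0.02 (standard error 0.09). Within a library, Tfrc amounted to 72.7 to 80.8 CPM per 1000 CPM of Trf in WT and to 114 to 122 in the libraries labelled Rag1-/-.

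The ferritin transcripts overlapped between the groups. Fth1 (chr19:9980600-9985111, plus strand), the chain with ferroxidase activity, was at 1830, 2070 and 1930 CPM in WT against 2160, 1860 and 1970 CPM in those labelled Rag1-/-, a log2 difference of 0.04 (standard error 0.07). Ftl1 (chr7:45457944-45459886, minus strand), the light chain, was at 177, 178 and 188 CPM in WT against 185, 185 and 178 CPM in those labelled Rag1-/-, a log2 difference of 0.02 (standard error 0.04). Without WT replicate 3 the Ftl1 difference was 0.04 and its groups did not overlap, and without WT replicate 1 it was -0.00050. The Fth1 to Ftl1 ratio of CPM was 10.8 ± 0.769 in WT and 10.9 ± 0.830 in the libraries labelled Rag1-/- (SD, n = 3 each). Set against ferritin, Tfrc amounted to 39.3 to 47.2 CPM per 1000 CPM of Fth1 in WT and to 60.5 to 68.4 in the libraries labelled Rag1-/-, without overlap.

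Of the export genes, Slc40a1 (chr1:45908070-45925594, minus strand) was at 10.5, 9.20 and 6.15 CPM in WT against 8.92, 8.30 and 8.03 CPM in those labelled Rag1-/-. The WT libraries lay on both sides of the others, with WT replicate 3 lowest of all 6, and the log2 difference was -0.00090 (standard error 0.17). This value depended on that library: without WT replicate 3 it was -0.22, and with a term for the 2 libraries of high Xist, in which WT replicate 3 alone stands for WT at low Xist, it was 0.45. Cp (chr3:19957054-20009750, plus strand), a copper ferroxidase that oxidises exported iron, was at 14.8, 18.2 and 16.6 CPM in WT against 13.4, 15.8 and 15.3 CPM in those labelled Rag1-/-, a log2 difference of -0.15 (standard error 0.09) with overlapping groups. It was -0.08 without WT replicate 2, -0.09 without Rag1-/- replicate 1 and -0.23 without WT replicate 1, where the groups did not overlap. Cp shares its locus with Hps3 on the opposite strand, at 13.1 to 16.1 CPM, and the strand setting of the counting is not given in the sources used here, so reads in the stretch that they share may have been counted for either gene.

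Of the RNA-binding sensors, Aco1 was higher in the libraries labelled Rag1-/- and Ireb2 overlapped between the groups. Aco1 (chr4:40143265-40199009, plus strand), which is a cytosolic aconitase when it holds an iron-sulfur cluster and binds RNA when it does not, was at 37.0, 36.1 and 35.4 CPM in WT against 39.3, 40.1 and 40.1 CPM in those labelled Rag1-/-. The groups did not overlap, the means were 36.2 ± 0.783 CPM and 39.8 ± 0.491 CPM (SD, n = 3 each), and the log2 difference was 0.14 (standard error 0.04). Ireb2 (chr9:54863755-54912534, plus strand), which is degraded when iron is plentiful, was at 51.5, 52.7 and 49.3 CPM in WT against 47.4, 51.7 and 48.7 CPM in those labelled Rag1-/-, with overlap and a log2 difference of -0.05 (standard error 0.05), the same as the median of all tested genes to 2 decimals. It was -0.09 without Rag1-/- replicate 2, where the groups did not overlap, and -0.03 without Rag1-/- replicate 1 or WT replicate 2. As a ratio of CPM within each library, Aco1 to Ireb2 was 0.685 to 0.719 in WT and 0.775 to 0.829 in the libraries labelled Rag1-/-.

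**Figure D2:**
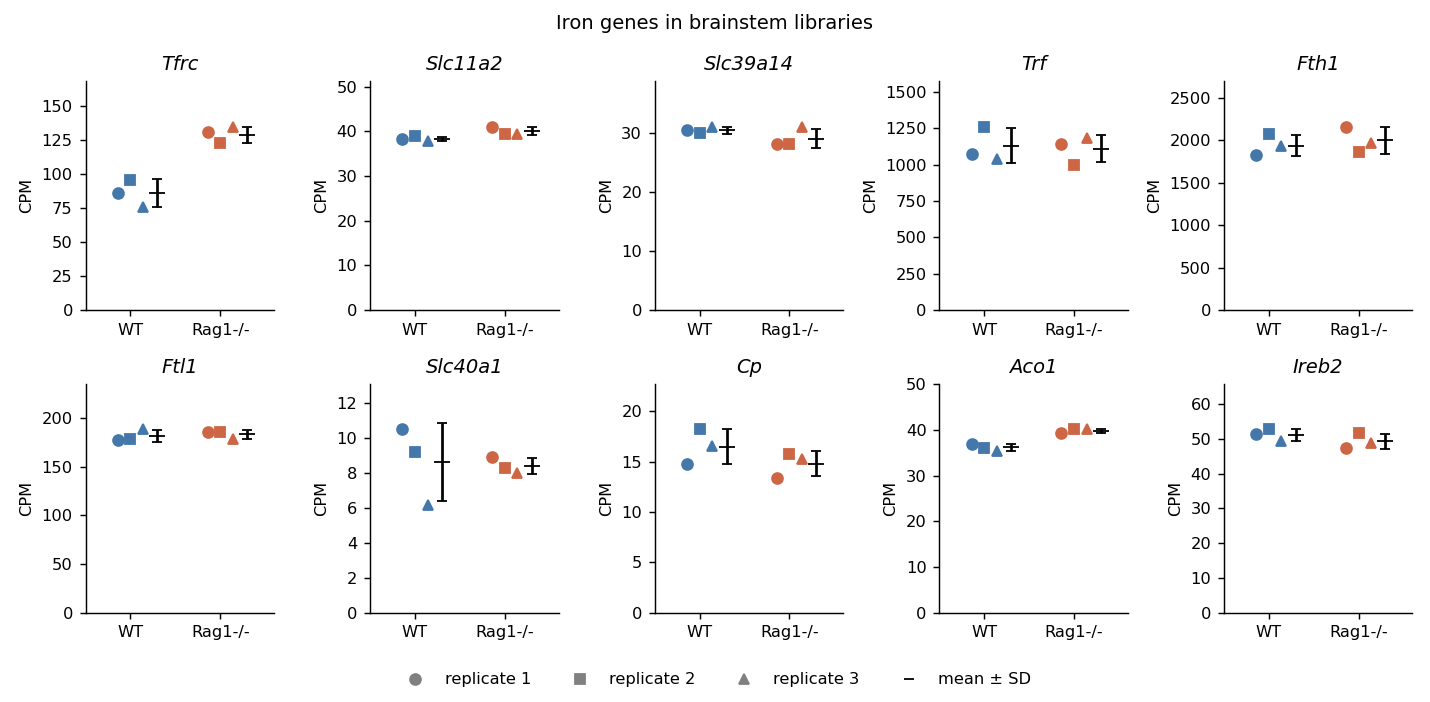
CPM of each iron gene in the 6 libraries (axes start at 0; shapes mark replicates 1 to 3; the black bar is the mean ± SD of 3 libraries). Tfrc is at 75.7 to 96.1 CPM in WT and 123 to 135 CPM in Rag1-/-, while the ferritin genes, Trf, Cp, Slc40a1, Slc39a14 and Ireb2 overlap between the groups.

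Counted over the list, 3 of the 10 genes (Tfrc, Aco1 and Slc11a2) had groups that did not overlap, all higher in the libraries labelled Rag1-/-, where 18.4% of all 16762 tested genes did not overlap and 3.98% were higher in this way. With unadjusted limma-trend p-values up to 0.05, 2 of the 10 were counted, Tfrc and Aco1, both higher, beside 11.6% of all tested genes in either direction and 2.27% higher. None of the 10 had an adjusted limma-trend p under 0.05, beside 0.0477% of tested genes, or 8 genes. Because the list was chosen on this contrast, nothing is read from these counts. The median log2 difference of the 10 genes was 0.0076 and that of all tested genes -0.05; 5 of the 10 differences were positive and 5 negative.

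**Figure D3:**
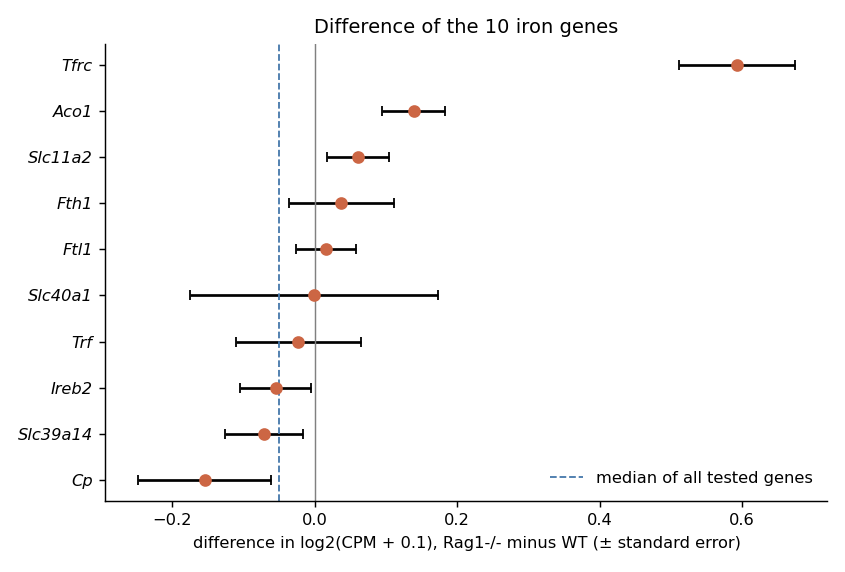
Difference in log2(CPM + 0.1) between Rag1-/- and WT for each of the 10 iron genes, with its standard error; the dashed line is the median of all tested genes, -0.05. Tfrc lies at 0.59 and the other 9 genes between -0.15 and 0.14.

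Scaling bears on the small differences. With the deposited CPM, 380 tested genes were higher and 1558 lower at an unadjusted p of at most 0.05, whereas quantile normalization gave 855 higher and 640 lower and median-of-ratios rescaling 848 higher and 689 lower. Under these scalings the log2 difference of Slc11a2 was 0.11 with either, that of Aco1 0.18 with either and that of Slc39a14 -0.03 with either. That of Ireb2 was -0.0089 with quantile normalization and -0.0093 with median-of-ratios rescaling. Trf was at -0.04 with quantile normalization and turned to 0.02 with median-of-ratios rescaling. Tfrc, Aco1 and Slc11a2 remained the 3 genes without overlap. The direction of Tfrc and of Aco1 was positive in all 15 alternatives, with log2 differences of 0.50 to 0.77 for Tfrc and 0.12 to 0.18 for Aco1.

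The other genes of iron and heme handling were taken from a list of 80, of which 77 were in the table and 75 passed the filter. Ftmt, Hephl1 and Hamp are not analysed here. None of the 75 passed an adjusted limma-trend p of 0.05, and 3 had an unadjusted p of at most 0.05 (Ncoa4, Bmp6 and Lrp1), all lower, beside 9.29% of all tested genes that were lower at this p. The median log2 difference of the list was -0.02, against -0.05 for all tested genes. With quantile normalization, 5 other genes of the list were counted, all higher (Cisd3, Cpox, Epas1, Isca2 and Slc48a1), and with median-of-ratios rescaling 6, all higher, so the direction of these counts depends on the scaling.

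By role, none of the 13 genes of uptake and endosomal release, which include the second transferrin receptor Tfr2 and the endosomal reductase Steap3, had an unadjusted p of at most 0.05. Tfr2 was at 3.00, 2.20 and 2.44 CPM in WT against 1.96, 2.15 and 1.88 CPM in those labelled Rag1-/-, without overlap and with a log2 difference of -0.32 (standard error 0.15), opposite in sign to that of Tfrc (adjusted p = 0.444 by limma-trend). Tfr2 was counted with pseudocount 1, without the trend and without WT replicate 2, its difference was -0.21 without WT replicate 1, and Steap3 was counted with the Xist term. Of the other genes of uptake, Nedd4l was counted with the Xist term and without WT replicate 2, Lcn2 without WT replicate 1, Ndfip1 and Steap2 without WT replicate 3, and Scara5 without Rag1-/- replicate 3. Of 3 storage genes tested, Ncoa4, the receptor that delivers ferritin to lysosomes, was counted. It was at 84.5, 88.3 and 78.6 CPM in WT against 75.8, 75.5 and 76.4 CPM in those labelled Rag1-/-. The log2 difference was -0.14 (standard error 0.05), with adjusted p = 0.373 by limma-trend. All 3 WT libraries were above the others. With the Xist term the Ncoa4 difference was -0.05.

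Of 6 genes of export and its hormone axis, Bmp6, a growth factor that drives the iron hormone hepcidin in the liver, was counted. It was at 10.9, 10.8 and 12.5 CPM in WT against 8.38, 10.2 and 10.6 CPM in those labelled Rag1-/-. The log2 difference was -0.24 (standard error 0.10), with adjusted p = 0.432 by limma-trend. Its groups were separate by a narrow margin. Without Rag1-/- replicate 1 its difference was -0.14, and with the Xist term -0.37. The hepcidin paralog Hamp2 was under the filter, with about 5 reads in its highest library. With low genes kept in the test it was counted, and as higher.

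Of 9 genes of heme capture, transport and breakdown, Lrp1, a large endocytic receptor that clears heme bound to hemopexin among many ligands, was counted. It was at 406, 434 and 484 CPM in WT against 375, 402 and 404 CPM in those labelled Rag1-/-. The log2 difference was -0.16 (standard error 0.07), with adjusted p = 0.415 by limma-trend. Here WT replicate 1 lay just above the highest of the other group, and without WT replicate 3 the difference was -0.09, and with the Xist term -0.30. Cd163, the macrophage receptor for hemoglobin bound to haptoglobin, had the most negative log2 difference of the wider list, -0.39 (standard error 0.20), with overlapping groups. It was counted with the Xist term (-0.66) and without WT replicate 1 (-0.58), and was -0.25 without WT replicate 3. The calls of Ncoa4, Bmp6 and Lrp1 were all lost under quantile normalization, median-of-ratios rescaling and the fit without the trend. Ncoa4 also lost its call with the Xist term and without WT replicate 1 or 2 or Rag1-/- replicate 2, Bmp6 with pseudocount 1, with low genes kept in the test and without WT replicate 1 or 3 or Rag1-/- replicate 1 or 2, and Lrp1 without WT replicate 2 or 3 or any 1 of the Rag1-/- libraries.

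None of the 22 genes of mitochondrial import and iron-sulfur clusters, the 8 of cytosolic iron-sulfur assembly, the 10 of heme synthesis or the 4 of iron sensing and hypoxia had an unadjusted p of at most 0.05 with the deposited scaling. The largest difference of these was that of Alas2, the heme synthesis enzyme of red blood cell precursors, at 6.77, 8.66 and 20.9 CPM in WT against 17, 13.3 and 20.2 CPM in those labelled Rag1-/-. Its groups overlapped through WT replicate 3, and the log2 difference was 0.63 (standard error 0.36), with adjusted p = 0.523 by limma-trend. Alas2 was counted without WT replicate 3, where the difference was 1.10, and with the replicate block. Its difference was 0.30 without WT replicate 1, and it turned to -0.33 with the Xist term. Among the other genes of these classes, Cpox was counted with the Xist term and without WT replicate 2, Cisd1 without Rag1-/- replicate 2 and Lyrm4 without Rag1-/- replicate 3. Alas2 also held the hairpin letters in its 5′ UTR, and Bola3 in a 3′ UTR.

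**Figure D4:**
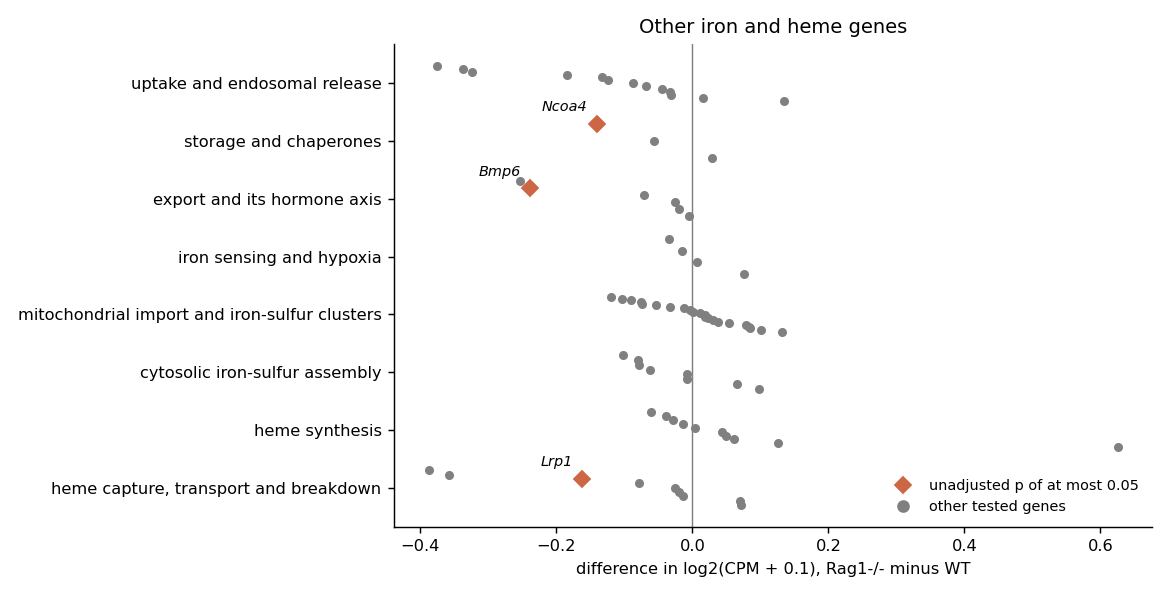
Difference in log2(CPM + 0.1) between Rag1-/- and WT for the 75 tested genes of the wider iron and heme list, 1 point per gene, by role. Diamonds are the 3 genes whose unadjusted p was 0.05 or less (Ncoa4, Bmp6 and Lrp1); the point at 0.63 is Alas2.

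Marker lists of the cell types that carry these genes were set beside them. In bulk tissue, fewer cells of a type and less RNA per cell cannot be told apart. Of 10 oligodendrocyte markers, 9 (all but Aspa) were higher in the libraries labelled Rag1-/- at an unadjusted p of at most 0.05, beside 2.27% of all tested genes, none with an adjusted p under 0.05, and the list summed to 20600 to 23900 CPM in WT and 26600 to 27800 CPM in the libraries labelled Rag1-/-, a mean 22.3% higher. Tfrc thus moved in the same direction as this list, and by more: per 1000 CPM of the list it was at 3.49 to 4.19 CPM in WT and at 4.61 to 5.06 CPM in the libraries labelled Rag1-/-, without overlap. Trf and Fth1 were lower relative to the list. Trf was at 48.0 to 53.0 CPM per 1000 CPM of it in WT and 37.6 to 44.5 in the libraries labelled Rag1-/-, and Fth1 at 86.7 to 88.8 and 69.7 to 77.8. The part of oligodendrocyte content in the Tfrc difference was not tested beyond these ratios.

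Endothelial markers, none of 8 with an unadjusted p of at most 0.05, summed to 230 to 282 CPM in WT and 248 to 273 CPM in the libraries labelled Rag1-/-. Per 1000 CPM of this list Tfrc was at 307 to 346 CPM in WT and at 467 to 527 CPM in the libraries labelled Rag1-/-. Red blood cell markers, whose precursors are rich in transferrin receptor, were in the table for 7 of 8, summed to 647 to 1880 CPM in WT and 897 to 1440 CPM in the libraries labelled Rag1-/-, and 1 of 7 tested was higher at this p, beside 2.27% of all tested genes. All 7 log2 differences were positive, as that of Tfrc was, with a median of 0.33, while the mean of the summed level was 2.44% higher. Per 1000 CPM of this list Tfrc was at 134, 96.3 and 40.2 CPM in WT against 103, 137 and 93.3 CPM in those labelled Rag1-/-, with overlap. The list itself ranged more widely within WT than Tfrc did, and the part of red blood cell content in Tfrc was not tested. WT replicate 3 was highest in this list and lowest in Tfrc. Its endothelial sum was also the lowest of the 6 libraries.

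Choroid plexus markers, all 8 with negative differences and 2 lower at an unadjusted p of at most 0.05 (Clic6 and Otx2), beside 9.29% of all tested genes, summed to 487 to 1230 CPM in WT and 555 to 633 CPM in the libraries labelled Rag1-/-, with WT replicate 3 the lowest. Slc40a1 was likewise higher in WT replicates 1 and 2 than in the other 4 libraries, and the part of choroid plexus content in it was not tested. Astrocyte markers summed to 4260 to 4580 CPM in WT and 4620 to 4770 CPM in the libraries labelled Rag1-/-, with 1 of 8 (Aqp4) higher at this p, beside 2.27% of all tested genes. Microglia summed to 255 to 285 and 254 to 274 CPM and neuron markers to 4400 to 5030 and 4230 to 4980 CPM, with none counted in either list. Meningeal fibroblast markers summed to 88.9 to 127 and 74.3 to 94.7 CPM, with all 6 differences negative and 2 lower at this p (Col1a1 and Dcn), beside the same 9.29%. Of the markers of liver, a main source of plasma transferrin and ceruloplasmin, 3 of 4 were in the table and summed to 2.55 to 3.12 CPM over the 6 libraries.

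**Figure D5:**
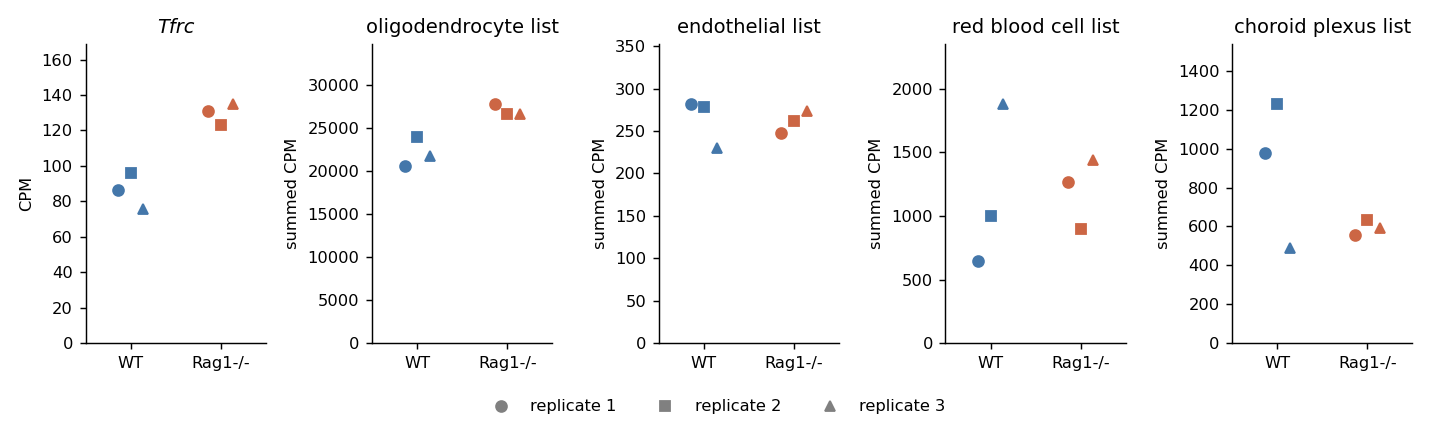
Tfrc in CPM and the summed CPM of 4 marker lists in each library (axes start at 0; shapes mark replicates 1 to 3; WT in blue, Rag1-/- in orange). Tfrc and the oligodendrocyte list are separate between the groups, the endothelial and red blood cell lists overlap, and WT replicates 1 and 2 stand above the other libraries in the choroid plexus list.

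Tfrc, Slc40a1 and Cp had the largest range of log2(CPM + 0.1) over the 6 libraries among the 10 genes. For each, the closest profiles among 14032 other genes averaging 1 CPM or more were found by the root mean square difference of centred log2 values. For Tfrc these were Rab7b (0.083), 9630013A20Rik (0.108) and Tcp11l1 (0.125). Rab7b was at 8.05 to 9.71 CPM in WT and 11.5 to 12.4 CPM in the libraries labelled Rag1-/-. For Slc40a1 they were 9430037G07Rik (0.054), Zfp160 (0.071) and AU041133 (0.071), and for Cp they were Plekhf2 (0.041), Pmfbp1 (0.043) and Fen1 (0.043). The measure covers 6 libraries and says nothing of shared control.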

How the data were processed

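The authors aligned reads to mm10 (RefSeq Transcripts 83) with STAR 2.5.3a, derived gene counts in Partek Flow 8.0, scaled them by library size and deposited the resulting CPM; the lowest value in the table is 0.0001. A filter before deposit is not stated, and the strand setting is not given in the sources used here. Ends of coordinates are 1 base before the deposited stop.

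Here log2(CPM + 0.1), which understates changes of low genes, was tested for 16762 genes averaging 0.1 CPM or more by limma-trend (limma 3.58.1, R 4.3.3), the model the methods name, two-sided, with Benjamini-Hochberg adjustment over all tested genes. Pseudocount and filter are not stated by the authors. The test was checked on simulated data. The CPM of 1 read was estimated from steps among low values; 84.3% to 86.3% of these were whole multiples within 0.1 read, too few to recover whole reads, and a count test was left out. Libraries were separate mice, and the estimates cover counting only.

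The members and lists were chosen with earlier results of these data known. Named genes were the 10 members, genes of the wider list with an adjusted p under 0.05, up to 3 with the smallest unadjusted p of at most 0.05 in each of its classes, and the 3 closest profiles of the 3 members with the largest range. Alas2, Cd163, Bola3, Tfr2, Steap3, Hamp2, Hps3, Hoxb3, the genes counted only under other settings and single markers were named after their values were seen. Hairpin letters and lengths came from GENCODE M21.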

Additional observations from a re-analysis of the deposited data

How the results depend on the processing

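The number of tested genes with an adjusted p under 0.05 was 8. Pseudocount 0.01 gave 4, dropping the low-value filter 4, requiring a mean of 1 CPM 4, quantile normalization 5, the fit without the trend 2, the Xist term 134, and leaving out a library 2 to 24 (24 without WT replicate 3, 2 without Rag1-/- replicate 1 or 3). At an unadjusted p of at most 0.05 it was 1938, and 1113 to 2025 with a library left out, lowest without replicate 1 labelled Rag1-/-. Deviations of same-numbered libraries correlated across genes at 0.0926, -0.220 and -0.0183, and those of differently numbered libraries at -0.184 to 0.182. These values show no pairing by number, and with 3 libraries per group they cannot exclude it. The replicate block left 3 genes under the adjusted threshold, and the count of the 10 iron genes at an unadjusted p of at most 0.05 stayed at 2. That count was 3 with quantile normalization and with median-of-ratios rescaling (Slc11a2 added), with the Xist term and without WT replicate 3 (Slc40a1 added, at 0.45 and at -0.22, opposite in sign), and without WT replicate 1 (Cp added).

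Of the 10 iron genes, 0 had an adjusted p under 0.05. With the Xist term, where WT replicate 3 alone stands for WT at low Xist, the count was 1, and with a library left out 0 to 1 (1 without WT replicate 2 or 3). The gene is Tfrc, and since the list was chosen on this contrast these counts are no test of it. From 3 to 5 had groups without overlap with a library left out, 5 without WT replicate 3. Their median log2 difference, 0.0076, was 0.062 with the Xist term, 0.053 with median-of-ratios rescaling and -0.025 to 0.063 with a library left out. In the wider list the median, -0.02, was 0.025 with quantile normalization and 0.025 with median-of-ratios rescaling; the count at an unadjusted p of at most 0.05, 3, was 7 with the Xist term, 6 with median-of-ratios rescaling, 5 with quantile normalization, 1 without the trend, and 1 to 4 with a library left out (1 without replicate 1 and 1 without replicate 2 labelled Rag1-/-). Over all tested genes the count at this p was 1938, 1537 with median-of-ratios rescaling, 1495 with quantile normalization and 1641 without the trend. With the Xist term the count over all tested genes also rose, so nothing about the list is read from the 7. Why these values moved was not tested. The log2 difference kept its sign in all 15 alternatives for Tfrc, Slc11a2, Slc39a14, Cp, Aco1 and Ireb2, in 12 for Fth1, 13 for Ftl1, 11 for Trf and 8 for Slc40a1. With a library left out it was -0.02 (without Rag1-/- replicate 1) to 0.09 (without Rag1-/- replicate 2) for Fth1 and -0.08 (without WT replicate 3) to 0.06 (without WT replicate 2) for Trf. The planned edgeR test could not be made without whole reads.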
